A study of Mus musculus with 23 samples.

Results

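The genes described here encode the machinery that carries proteins along cilia: the subunits of the intraflagellar transport (IFT) trains, the BBSome and its assembly factors, 2 small GTPases and 3 kinesin motors. They were chosen by name, with earlier results of these data known. The rule took every symbol made of Ift or Bbs and a number, together with Ttc8, Mkks, Arl6, Arl13b, Kif3a, Kif3b and Kif17. Of the 23481 genes listed in the files, 28 met this rule. They fall into 10 subunits of the IFT-B train, 3 of the IFT-A train, 7 BBSome subunits, 3 BBSome chaperonins, 2 ciliary GTPases and 3 kinesin-2 subunits. The remaining genes of the same trains, which carry other symbols (among them Rabl5, a name of Ift22), were kept as a separate list.

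Cilia are built and kept up by trains that kinesin-2 pulls from the base to the tip and that dynein-2 pulls back. IFT-B is needed for the outward run and IFT-A for the return, while the BBSome rides on the trains and moves membrane proteins in and out of the cilium. Olfactory neurons carry long cilia that hold the odorant receptors and the channels of odor transduction, and mice that lack BBSome proteins have fewer or shorter olfactory cilia and a poor sense of smell.

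The libraries came from the olfactory epithelium of C57BL/6 mice at postnatal day 21 that had been exposed for 1 h to an odor or to a control. RNA was sequenced after it was pulled down through pS6, the phosphorylated form of a ribosomal protein, a mark that ribosomes of recently active neurons carry. Acetophenone was given at 100% to litters 1 to 3 and at 1% to litters 3 to 5, with controls from litters 1 to 5, and TMT (trimethylthiazoline, a fox odor) was given at 1% and at 100% to litters 1 to 4, with a control from each. This gives 5 acetophenone controls, 3 libraries for each acetophenone dose and 4 libraries for each TMT group. All groups share the strain, the age and the antibody, and the sources used here do not say how many mice went into a library, what the control was, or whether RNA from before the pull-down was sequenced. A library is therefore bulk tissue RNA bound to pS6 ribosomes, and a lower value can mean fewer cells of a type, less RNA per cell or less RNA on pS6 ribosomes, which cannot be told apart.

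Uniquely aligned counts summed to 2118099 to 9526932 per library. Markers of the tissue were present in all 23 libraries. Omp, which marks mature olfactory neurons, had 325 to 7337 counts, Gap43 of immature neurons 1312 to 9606, Foxj1 of cells with motile cilia 14 to 514, Cyp2g1 of sustentacular cells and glands 838 to 9541, and Krt5 of basal cells 14 to 349. IFT genes are also used by cells with motile cilia, so the levels below are those of all ciliated cells in the pull-down. P-values measure the spread between these litters and libraries.

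Genes for ciliary transport are known targets of RFX factors, which bind a motif called the X-box, a pair of similar arms facing each other. The promoters below show one member with a full pair, one with the arm GTTGCC alone and one with neither of these spellings. Of the 28 genes, 25 had an entry among the RefSeq promoter windows (build GRCm38.p6), each spanning 250 bases before the start of the gene to 50 after it; Ift122, Ift80 and Ift81 had none. The 250 bases before the start are printed, 5′ to 3′ on the strand of the gene, for Bbs7 (chr3:36613390-36613639, minus strand), for Ift27 (chr15:78174082-78174331, minus strand) and for Mkks (chr2:136891407-136891656, minus strand). Capitals mark GTTGCC, read on either strand, and in Bbs7 the whole pair; the looser arm GTTNCC is not marked.
Bbs7: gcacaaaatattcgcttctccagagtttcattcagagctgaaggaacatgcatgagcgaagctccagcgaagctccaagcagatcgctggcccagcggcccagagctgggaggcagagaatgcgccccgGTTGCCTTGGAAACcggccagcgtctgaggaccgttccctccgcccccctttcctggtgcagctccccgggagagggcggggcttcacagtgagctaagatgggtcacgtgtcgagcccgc
Ift27: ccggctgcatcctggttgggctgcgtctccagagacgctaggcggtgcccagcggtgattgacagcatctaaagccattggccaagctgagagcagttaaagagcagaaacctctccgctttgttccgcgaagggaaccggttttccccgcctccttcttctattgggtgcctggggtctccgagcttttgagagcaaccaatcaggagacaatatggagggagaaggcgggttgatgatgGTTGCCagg
Mkks: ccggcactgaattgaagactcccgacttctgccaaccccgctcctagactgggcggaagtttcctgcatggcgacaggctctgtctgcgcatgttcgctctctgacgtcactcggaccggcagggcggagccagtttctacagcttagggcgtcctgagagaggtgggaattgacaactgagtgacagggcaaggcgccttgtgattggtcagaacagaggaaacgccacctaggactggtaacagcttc
The pair in Bbs7 starts at base 130 of the printed window and GTTGCC in Ift27 at base 242. Mkks, a gene whose values with TMT are described below, has neither GTTGCC nor the pair in its window. That window holds the looser arm at 3 places, as the window of Bbs7 does, and that of Ift27 holds it at 2.

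In all, 9 spellings were searched on both strands, and they overlap in part with each other. The arm GTTGCC was in a window of 11 of the 25 members (44.0%) and of 14.14% of the 27025 genes with a window. The longer GTTGCCA was in 3 members (5.02% of genes), the variant GTTGCTA in 4 (4.28%), the looser arm GTTNCC in 20 (48.8%), and GTTNCCNNG in 11 (18.77%). The full pair, GTTNCC, any 2 bases and GGNAAC, was in Bbs7 alone among the members (0.53% of genes). Of the other pairs, GTTNCC, 2 bases and GNNAC, a shorter spelling that the full pair does not match, was in 3 members (1.79%). GTTNCC, 3 bases and GNAAC was in 1 (0.94%), and GTNNCC, 3 bases and GNNAC in 4 (5.26%). Among the members with the arm GTTGCC were Ift27, Ift57, Ift88, Ift140, Ift172, Bbs1, Bbs5, Bbs7, Arl13b, Kif3a and Kif17. A match of letters is a description and not a site of binding.

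Most of these genes were read at levels well above the typical gene. Over the 23 libraries, the median member had 23.6 CPM per kb of exon, against 2.05 for the median of 19723 genes with a count and a length, and 26 of the 28 lay above that median. CPM is the usual counts-per-million value, on a scale common to all libraries. The 28 genes together took 0.188 to 0.367% of the counts of a library.

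The highest levels per kb were those of small train subunits. Ift43, an IFT-A subunit, had a mean of 335 CPM per kb, Ift27, a small GTPase of the IFT-B train, 174, and Ift20, the IFT-B subunit that also sits at the Golgi, 172. Ift57 followed with 68.1 and Ift46 with 56.5. The other 2 IFT-A subunits were far below Ift43, with 14.8 for Ift122 and 10.6 for Ift140, so subunits of 1 complex did not share a level. Ift20 was the only member with a sizeable share of reads aligned to several places, 85.8% of its estimated counts being unique, against 99.7 to 100.0% for the rest.

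Within the IFT-B train the mean levels ran from 174 CPM per kb for Ift27 down to 5.82 for Ift80, with a median over the 10 genes of 41.0. The 7 BBSome subunits had a median of 28.3, with Ttc8 highest at 45.1. The GTPase Arl6, which recruits the BBSome to membranes, had 52.7 CPM per kb, and Arl13b, a GTPase of the ciliary membrane, 4.2.

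The lowest members were Kif3b at 0.191 CPM per kb, Bbs1 at 0.192, Kif17 at 3.59, Bbs10 at 3.7 and Arl13b. Kif3b, partner of Kif3a in the main anterograde motor, had 0 to 14 counts in a library, and Bbs1, the BBSome subunit that binds Arl6, 0 to 32, while Kif3a was at 17.6 CPM per kb and the other BBSome subunits were at 17.9 to 45.1. Both genes are annotated with long transcripts (exon unions of 5.635 and 5.833 kb), and their values are too low here to compare groups.

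**Figure D1:**
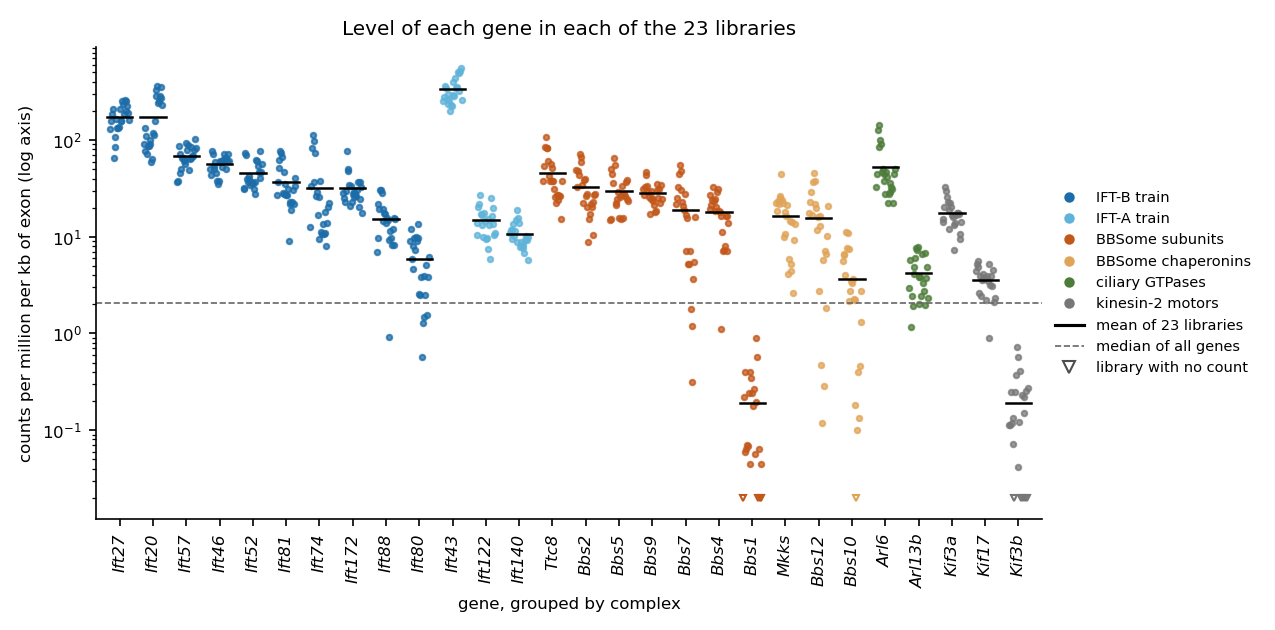
Level of each of the 28 genes in CPM per kb of exon (log axis), 1 point per library in 23 libraries, coloured by complex; bars are means, the dashed line is the median of all genes, and open triangles at the bottom are libraries with no count. Ift43, Ift27 and Ift20 stand highest, and only Bbs1 and Kif3b have means below the median gene.

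None of these genes passed the test with acetophenone. At 100%, 26 of the 28 had enough counts to be tested (Bbs1 and Kif3b did not), and edgeR called 0 of them at an adjusted p under 0.05, with 0 at an unadjusted p below 0.05, while it called 0.0% of all 11564 genes. With litter as a block it again called 0, with 0.0951% of all genes called. At an unadjusted p below 0.05 it had 2 members higher, beside 5.27% of all genes. DESeq2 called 0 as well. The median log2 fold change of the members was 0.01, beside -0.01 for all genes tested, and 13 members had positive and 13 negative values.

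The 3 members with the smallest p in the fit without block were Arl13b, Ift74 and Ift122, and none passed. For Ift74, which with Ift81 forms the part of IFT-B that binds tubulin, CPM was 32.8 in the control and 88.3 with 100% acetophenone in litter 1, 216 and 294 in litter 2, and 97.4 and 257 in litter 3. It was higher with the odor in each litter, but control values differed between litters over a wider range, and the groups overlap. Its within-litter log2 fold change was 1.08 (SE 0.23, edgeR adjusted p = 0.308), and 0.91 without the block (SE 0.68, edgeR adjusted p = 1).
Arl13b had 10.5 and 20.3 CPM in litter 1, 4.15 and 8.67 in litter 2, and 6.71 and 14.6 in litter 3, control first. The odor library was higher in every litter, from low values, with a within-litter log2 change of 1.04 (SE 0.41, edgeR adjusted p = 0.897). Ift122 had a within-litter log2 change of -0.30 (SE 0.21, edgeR adjusted p = 0.897).

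Directions were also counted litter by litter. Higher in all 3 litters at 100% were 6 members (Arl13b, Arl6, Ift27, Ift74, Kif17 and Ttc8), beside 14.6% of all genes tested, and lower in all 3 were Bbs2 and Mkks, beside 13.3%. Set against those shares, 6 of 26 is above and 2 of 26 is below.

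At 1% acetophenone edgeR again called 0 of 26 members without the block, with 0 at an unadjusted p below 0.05 (0.0% of 12077 genes called), and 0 with it, with 5 (1 higher, 4 lower) at an unadjusted p below 0.05, beside 8.51% of all genes at such a p and 0.00828% called. DESeq2 called 0. The members' median log2 fold change was -0.04, beside 0.01 for all genes. Ift172, the large IFT-B subunit that acts at the tip of the cilium, had 417, 185 and 182 CPM in the controls of litters 3, 4 and 5 and 259, 112 and 123 with the odor. It was lower in every litter by a like amount, with a within-litter log2 change of -0.63 (SE 0.13, edgeR adjusted p = 0.309). Bbs9, a structural subunit of the BBSome, had 166, 93.1 and 106 in the controls and 104, 62.4 and 88.3 with the odor (within-litter log2 fold change -0.48, SE 0.15, edgeR adjusted p = 0.457).
Ift74 had 97.4, 69.8 and 44.0 in the controls and 191, 75.9 and 67.1 with the odor, a within-litter log2 change of 0.59 (SE 0.19, edgeR adjusted p = 0.471). Values at the 2 doses share the control of litter 3, so they are not independent. Members higher in every litter at 1% numbered 5 (Arl13b, Arl6, Bbs5, Ift20 and Ift74; 15.2% of all genes) and members lower in every litter 8 (Bbs9, Ift122, Ift140, Ift172, Ift81, Ift88, Kif3a and Ttc8; 16.1% of all genes). All 3 IFT-A subunits had negative values at this dose, with a median of -0.41 within litters, and none passed.

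With 100% TMT, Mkks rose within litters. Mkks encodes a chaperonin that helps the BBSome subunits to assemble, and its mutations cause McKusick-Kaufman and Bardet-Biedl syndromes. CPM was 33.6 in the control and 67.4 with 100% TMT in litter 1, 13.0 and 46.2 in litter 2, 16.6 and 45.2 in litter 3, and 8.29 and 43.4 in litter 4. Every library with 100% TMT lay above every TMT control, and the lowest of them, 43.4, compares with a highest control of 33.6. The share of all genes without overlap at 100% TMT was not counted, so this separation has no background beside it. The within-litter log2 fold change was 1.65 (SE 0.34, 3.15-fold, edgeR adjusted p = 0.0325), and without the block it was 1.53 (SE 0.47, 2.88-fold, edgeR adjusted p = 0.196), which does not pass.

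Among the 27 members tested (all but Kif3b), Mkks was the 1 call within litters, beside 2.37% of the 13233 genes tested. Without the block edgeR called 0, with 4 members (2 higher, 2 lower) at an unadjusted p below 0.05 (14.7% of all genes had such a p), and 0.0% of all genes were called. DESeq2 called Mkks (log2 fold change 1.53, adjusted p = 0.0402) and Ift80 (1.67, adjusted p = 0.0315). Of all 13233 genes it called 295 higher and 168 lower.
The call of Mkks did not hold in every fit within litters. It was lost with a correction for GC content and length (log2 fold change 0.92, edgeR adjusted p = 0.18), with only the 8 libraries compared (1.70, edgeR adjusted p = 0.073), and without each litter in turn, where values were 1.45 to 1.84 with edgeR adjusted p of 0.0704 to 0.16.

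The count of Mkks may take in reads of overlapping genes. It lies on chromosome 2 (GRCm38, 136873780 to 136891389, minus strand) and shares 172 bases of exon with Slx4ip on the opposite strand, which had at most 6 counts in any library, and 944 and 180 bases with 2 unnamed protein-coding genes on its own strand that the files do not list. At 1% TMT, Mkks had 52.0, 18.7, 13.9 and 29.6 CPM in litters 1 to 4, between control and 100% in litters 1, 2 and 4 and below both in litter 3. Its log2 fold change at 1% was 0.68 within litters (SE 0.33, edgeR adjusted p = 0.74).

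Ift80, an IFT-B subunit whose mutations cause skeletal ciliopathies, came next and is named because its values were seen. CPM in litters 1 to 4 was 10.4, 2.31, 6.12 and 6.31 in the controls, 10.3, 5.19, 10.3 and 15.6 at 1% TMT, and 15.8, 16.0, 20.7 and 25.2 at 100%. As for Mkks, every 100% library was above every control, and the share of all genes so separated was not counted. The log2 fold change at 100% was 1.80 within litters (SE 0.44, edgeR adjusted p = 0.0547), just short of the threshold, 1.66 without the block (SE 0.49, edgeR adjusted p = 0.184), and 0.93 with litter and the correction for GC content and length (edgeR adjusted p = 0.347).

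**Figure D2:**
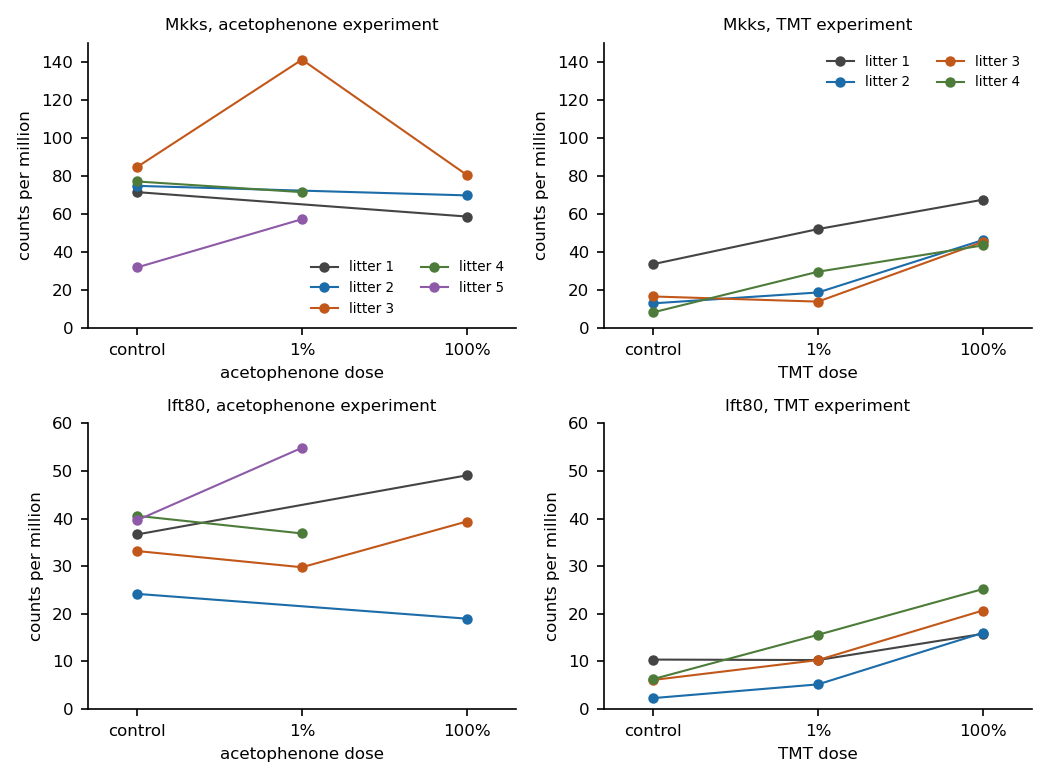
CPM of Mkks (top) and Ift80 (bottom) by odor dose in the acetophenone (left) and TMT (right) experiments, 1 point per library, lines joining libraries of 1 litter (litters 1 and 2 had no 1% acetophenone library). In the TMT experiment both genes are above their control at 100% in all 4 litters, and Mkks at 100% lies at 43.4 to 67.4.

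The other 2 chaperonins, Bbs12 and Bbs10, were low and uneven in the TMT controls. Bbs12 had 6.62, 1.16, 0.696 and 16.0 CPM in the controls and 31.6, 13.9, 4.45 and 50.7 with 100% TMT, higher in each litter with overlapping groups (within-litter log2 fold change 2.56, SE 0.87, edgeR adjusted p = 0.136). Bbs10 had 9.22, 0.495, 0.278 and 1.26 in the controls and 6.17, 0, 0.37 and 7.6 at 100%, higher in 2 of 4 litters.
Across the complexes, the median within-litter log2 fold change at 100% TMT was 0.20 for IFT-B, -0.54 for IFT-A, 0.38 for the BBSome subunits and 1.65 for the chaperonins. Some of these medians are the value of a single gene. That of the BBSome subunits is Bbs1 (SE 1.61), whose counts are too low to compare groups. The other BBSome subunits ran from -0.08 (Bbs5) to 0.99 (Bbs4). The medians of IFT-A and of the chaperonins, with 3 genes each, are Ift122 and Mkks. Over all members the median was 0.37, with 21 of 27 values positive, beside a median of 0.02 and 51.0% positive over all genes. With the correction for GC content and length the members' median was 0.05.

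Negative values with the smallest p were those of Ift43 and Ift27, the highest members by level. Ift43 had 320, 351, 407 and 414 CPM in the controls and 230, 286, 258 and 211 with 100% TMT, so that every 100% library lay below every control (within-litter log2 fold change -0.55, SE 0.17, edgeR adjusted p = 0.112). Ift27 had 230, 279, 282 and 248 in the controls and 175, 203, 217 and 179 at 100%, also without overlap (within-litter log2 fold change -0.40, SE 0.13, edgeR adjusted p = 0.117). Neither passed. As for Mkks, the share of all genes so separated was not counted. Kif17 (-0.56, SE 0.53) and Ift122 (-0.54, SE 0.25) had within-litter values as far below 0, with larger p. With litter and the correction for GC content and length, Ift43 was at -0.53 (edgeR adjusted p = 0.106) and Ift27 at -0.16 (edgeR adjusted p = 0.642). Higher in every litter at 100% TMT were 5 members (Bbs12, Ift80, Ift81, Ift88 and Mkks; 14% of all genes), and lower in every litter 3 (Ift122, Ift27 and Ift43; 14.6% of all genes).

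At 1% TMT edgeR called 0 of 27 members without the block, with 1 higher at an unadjusted p below 0.05, beside 4.29% of all genes (0.0% of all genes called), and 0 with it, with 3 higher at such a p, beside 7.16% of all genes (0.00756% called). DESeq2 called 0. The smallest p was that of Ift74, with 24.6, 27.9, 28.9 and 36.8 CPM in the controls and 98.5, 35.2, 47.3 and 53.0 with the odor (within-litter log2 fold change 0.93, SE 0.33, edgeR adjusted p = 0.689). The difference was widest in litter 1. Next by p in the fit without the block were Arl6 (within-litter log2 fold change 0.44, SE 0.23, edgeR adjusted p = 0.767) and Ift81 (0.60, SE 0.23, edgeR adjusted p = 0.694). The low gene Bbs12 had a larger within-litter value (2.12, SE 0.91, edgeR adjusted p = 0.694), and so did Bbs10 (1.90, SE 1.15), Bbs4 (1.04, SE 0.48) and Mkks. Higher in every litter were 3 members (Bbs10, Ift74 and Ift81; 8.77% of all genes) and lower in every litter 2 (Ift27 and Ttc8; 8.05% of all genes).

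**Figure D3:**
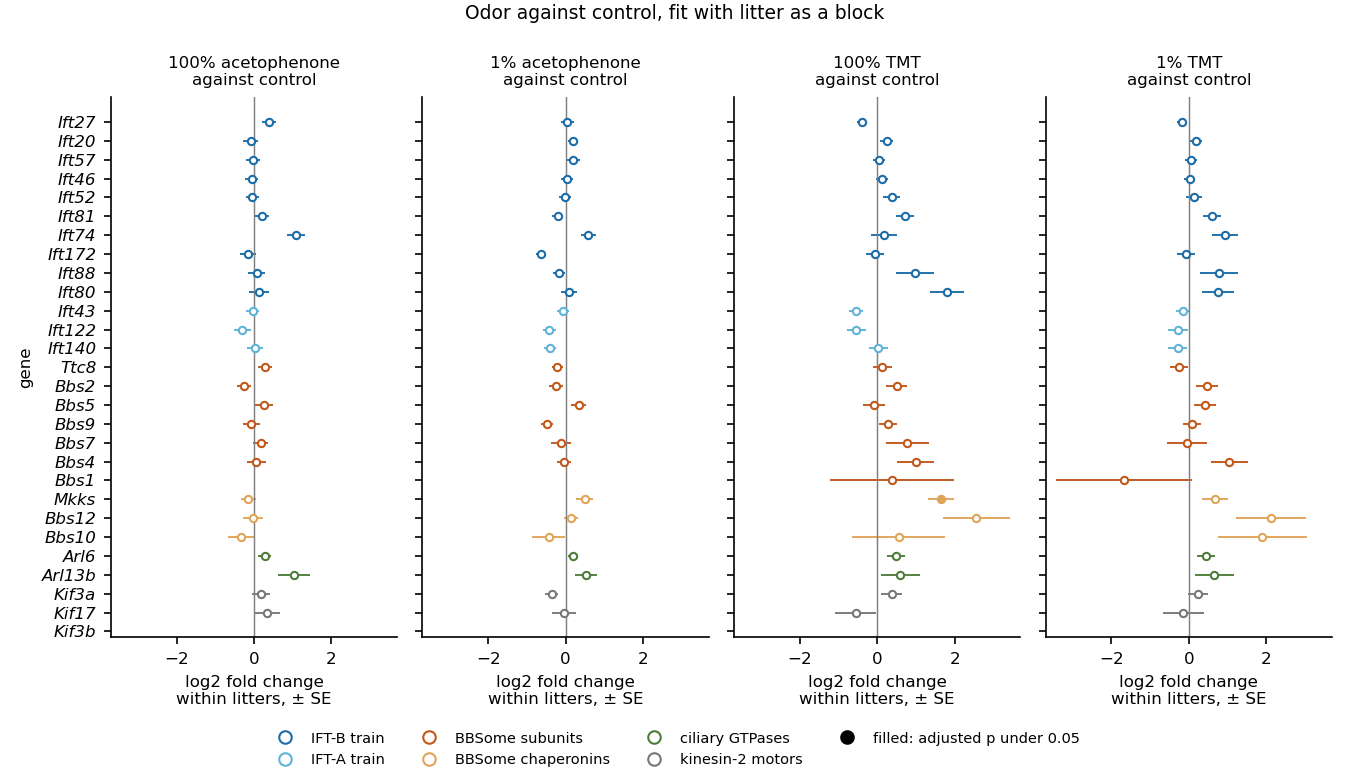
Log2 fold change of each tested gene within litters (fit with litter as a block) with its standard error, for both doses of acetophenone and of TMT, coloured by complex; a filled point has an adjusted p under 0.05. Mkks with 100% TMT, at 1.65, is the only filled point, and the values of the low genes Bbs1, Bbs10 and Bbs12 have the widest errors.

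Between the 2 TMT doses edgeR called 0 of 27 members without the block, with 1 lower at an unadjusted p below 0.05, beside 5.27% of all genes (0.0% called), and 0 with it, with 2 higher and 2 lower at such a p, beside 8.07% of all genes (0.0% called); DESeq2 called 0. The 3 smallest p without the block were those of Ift43, Ift74 and Ift80, with log2 differences within litters of -0.40, -0.76 and 1.04 and edgeR adjusted p of 0.598 to 0.6.

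The responses to 100% TMT and to 100% acetophenone were set against each other as a difference of differences, each against its own controls. Of 26 members edgeR called 0 without the block, with 2 higher at an unadjusted p below 0.05, beside 4.83% of all genes (0.0% of 13033 genes called), and 0 with it, with 3 higher and 3 lower at such a p, beside 11.1% of all genes (0.0691% called); DESeq2 called 0. Mkks, with 71.4, 74.7 and 84.7 CPM in the acetophenone controls of litters 1 to 3 and 58.6, 69.7 and 80.5 with 100% acetophenone, was slightly lower with that odor in each litter. Its difference between the odors was 1.81 within litters (SE 0.37, edgeR adjusted p = 0.132) and 1.65 without the block (SE 0.55, edgeR adjusted p = 0.932), so a response of Mkks particular to TMT was not shown. By p within litters, next were Bbs12 (2.42, SE 0.51, edgeR adjusted p = 0.144), Ift27 (-0.80, SE 0.23, edgeR adjusted p = 0.218) and Ift80 (1.65, SE 0.55, edgeR adjusted p = 0.304). Then came Ift74 (-0.95, SE 0.36, edgeR adjusted p = 0.362) and Ift43 (-0.57, SE 0.24, edgeR adjusted p = 0.41). None of these passed either.

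The largest differences in these genes lay between the control libraries of the 2 experiments. Of 26 members tested, 2 were higher and 5 lower in the TMT controls than in the acetophenone controls by edgeR, beside 14.4% of all 12315 genes called. The lower ones were BBSome genes and Ift80. Bbs7, a BBSome subunit, had 67.6, 101, 172, 70.7 and 58.4 CPM in the acetophenone controls (litters 1 to 5) and 22.0, 16.3, 5.57 and 11.4 in the TMT controls (litters 1 to 4), a log2 difference of -2.74 (SE 0.48, 6.67-fold, edgeR adjusted p = 0.00824) with no overlap.

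Bbs12 had 42.4, 71.2, 89.9, 52.5 and 28.5 CPM against 6.62, 1.16, 0.696 and 16.0 (log2 difference -3.19, SE 0.82, edgeR adjusted p = 0.0275). Ift80 had 36.7, 24.2, 33.2, 40.6 and 39.7 against the TMT control values given above, all of them lower (-2.44, SE 0.43, edgeR adjusted p = 0.00856). Bbs2, a BBSome subunit, had 149, 145, 219, 104 and 117 against 81.3, 27.1, 67.6 and 32.3 (-1.47, SE 0.39, edgeR adjusted p = 0.0308).
These 3 genes did not overlap between the groups either. Mkks did: it had 71.4, 74.7, 84.7, 77.0 and 31.9 in the acetophenone controls, and the TMT control of litter 1, at 33.6, was above the last of these (-1.90, SE 0.44, edgeR adjusted p = 0.0203). Mkks at 100% TMT, 50.6 ± 11.3 CPM (SD, n = 4), lay between the TMT controls, 17.9 ± 11 (SD, n = 4), and the acetophenone controls, 67.9 ± 20.7 (SD, n = 5).

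The 2 higher genes were the small train subunits. Ift20 had 103, 152, 82.4, 105 and 67.0 CPM in the acetophenone controls and 134, 323, 273 and 307 in the TMT controls (log2 difference 1.38, SE 0.33, edgeR adjusted p = 0.0216). Ift43 had 204, 293, 213, 210 and 188 against 320, 351, 407 and 414 (0.78, SE 0.23, edgeR adjusted p = 0.0429). The TMT control of litter 1 overlaps the acetophenone controls for Ift20, while for Ift43 all 4 lie above. Counting groups without overlap gave 2 members above (Ift27 and Ift43; 10.4% of all genes) and 7 below (Bbs12, Bbs2, Bbs4, Bbs7, Ift80, Ift81 and Ttc8; 11.1% of all genes). The median log2 difference was -0.58 over the members and -0.03 over all genes, with 21 of 26 members negative. It was -0.22 for IFT-B, -1.25 for the BBSome subunits and -2.72 for the chaperonins. The chaperonin median is the value of the low gene Bbs10 (SE 0.92).

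**Figure D4:**
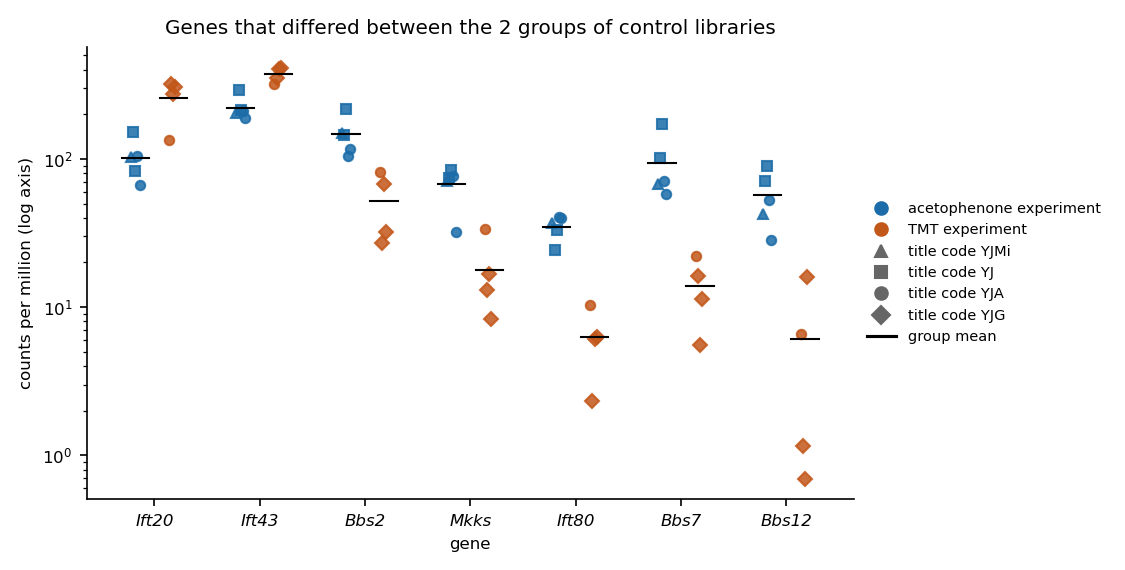
CPM (log axis) of the 7 genes that differed between the control libraries of the acetophenone experiment (5 libraries) and of the TMT experiment (4 libraries), 1 point per library, with group means as bars and the letters that open the library title as the symbol. Ift20 and Ift43 are higher and the other 5 lower in the TMT controls, and the TMT control of litter 1 (title code YJA) is the highest TMT library for Ift80, Mkks, Bbs2 and Bbs7.

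The experiment and the series of library titles cannot be told apart in most of these controls. The letters that open the library titles run with the litters: YJMi for acetophenone litter 1, YJ for litters 2 and 3, YJA for litters 4 and 5 and for TMT litter 1, and YJG for TMT litters 2 to 4. With these letters as a block, TMT litter 1 against acetophenone litters 4 and 5 is left as the contrast. A fit on so few libraries cannot decide whether the members differ, so only values are given. Within those 3 libraries, Ift80 was 10.4 against 40.6 and 39.7 CPM, Bbs7 22.0 against 70.7 and 58.4, and Ift43 320 against 210 and 188, whereas Mkks, 33.6 against 77.0 and 31.9, overlapped.

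GC content moved with these differences. The median GC content, taken from the longest transcript of each gene, was 46.1% for the members and 50.6% for all genes. Across the 26 members the log2 difference between the controls had a Spearman correlation of 0.61 with GC content, beside 0.49 across 12211 genes. The genes share their libraries, so these are descriptions. With a correction for GC content and length 4 members were called, Ift20 and Ift57 higher (log2 difference 1.14, edgeR adjusted p = 0.0428, and 1.27, edgeR adjusted p = 0.0148) and Bbs7 and Bbs2 lower (-1.70, edgeR adjusted p = 0.0179, and -1.28, edgeR adjusted p = 0.0483). Mkks (-0.84, edgeR adjusted p = 0.155), Ift80 (-1.09, edgeR adjusted p = 0.0941) and Ift43 (0.11, edgeR adjusted p = 0.815) were not. Of all 12315 genes, 842 were called higher and 516 lower with this correction.
In the odor comparison, which uses the same TMT controls, the sign was the reverse: within litters the correlation of fold change with GC content at 100% TMT was -0.59 across 27 members and -0.45 across 13115 genes, and at 1% TMT it was -0.71 and -0.36. With acetophenone it was -0.37 across members and -0.18 across 11461 genes at 100%, and -0.55 and -0.33 (11973 genes) at 1%. Mkks (44.3% GC) and Ift80 (42.27%) are among the members with less GC, and Ift43 (51.09%) and Ift27 (55.08%) among those with more.

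**Figure D5:**
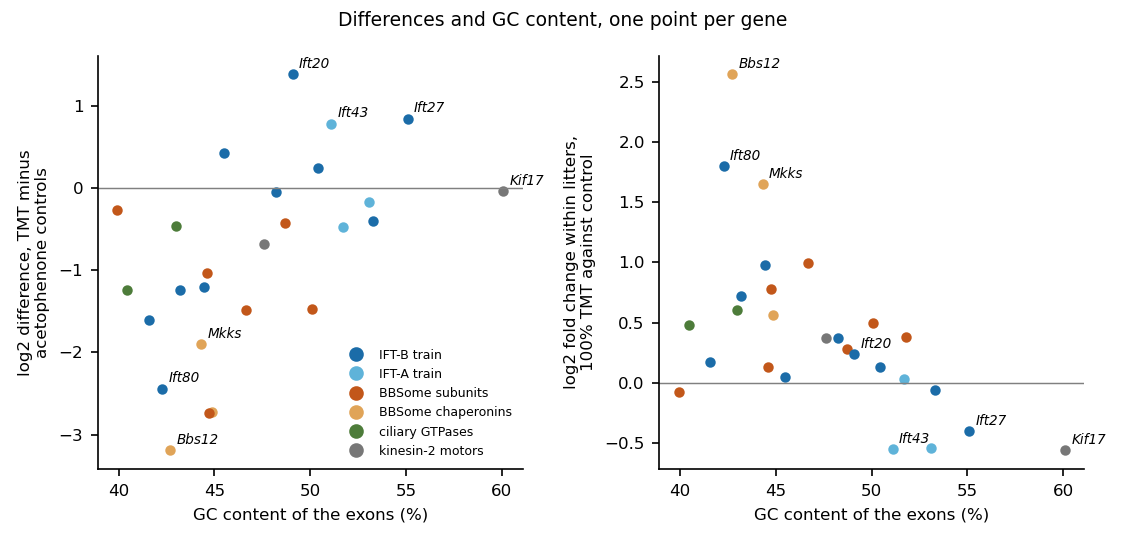
Difference of each gene between the control groups (left, TMT minus acetophenone) and its fold change within litters at 100% TMT (right), both as log2, against the GC content of its longest transcript in percent (labelled as exons on the axis), 1 point per gene coloured by complex. Points rise to the right for the controls and fall to the right for 100% TMT, though Bbs5, the member with the least GC, is at -0.08 with 100% TMT.

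Marker genes of the cell types also differed between the control groups. The summed level of 12 mature neuron markers was 3976 to 7422 CPM in the acetophenone controls and 1894 to 4259 in the TMT controls, with 1 of the 12 called (Cnga4, lower), and 9 immature neuron markers summed to 1058 to 2066 and 1505 to 2465, with 1 of 8 tested called (Dpysl5, higher). Markers of cells with motile cilia summed to 1326 to 1992 (median 1361) and 1576 to 2526 (median 2243) over 17 genes, with 3 of 16 tested lower by edgeR (Sntn, Ccdc39 and Dnah5). This list went both ways. DESeq2 called those genes and Hydin (-2.09) lower, and Rsph1 (0.98), Tekt2 (0.91) and Tekt1 (0.78) higher. Of 8 sustentacular markers 3 were lower (Sult1c1, log2 difference -4.31, Ermn, -2.84, and Muc2, -1.82), with sums of 8528 to 11005 and 7510 to 8559 and a median log2 difference of -1.09. In the lists of glands, glia and endothelium, immune cells, and muscle and red cells, edgeR called Muc5b (-1.38), Fabp7 (-4.14) and Ptprc (-3.68) lower and C1qb (1.02) and Hba-a1 (1.83) higher; of basal cell markers it called 0 of 7. Omp, Gap43, Foxj1, Cyp2g1 and Krt5 had counts in every library. The part of these markers in the differences of the ciliary transport genes was not tested.
At 100% TMT the same sums were 3331 to 4347 for mature neurons, 1160 to 1923 for immature neurons and 1555 to 2074 for cells with motile cilia, each overlapping its TMT controls, and sustentacular markers summed to 7184 to 8953. EdgeR called 0 genes of any of the 9 marker lists with or without the block, and DESeq2 called Dpysl5 lower (-1.64) and Sntn higher (4.03). Median log2 fold changes within litters were 0.65 for sustentacular markers (7 of 8 positive), -0.54 for immature neuron markers (1 of 8) and -0.97 for basal cell markers (1 of 7). The basal value was -0.47 without the block. Mature neuron markers had 0.14 (9 of 12), cells with motile cilia -0.13 (7 of 16), and muscle and red cells -0.79 (0 of 6). Gland markers had -0.17 (3 of 7), glia and endothelium 0.10 (4 of 6) and immune cells -0.25 (3 of 8).

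The rest of the ciliary transport machinery was followed through lists of related genes. Of the IFT and BBSome genes with other symbols 17 were in the files, and of the 13 tested 0 were called in any odor comparison; between the controls Ttc30b (log2 difference -1.91, edgeR adjusted p = 0.0119) and Ttc30a1 (-3.36, edgeR adjusted p = 0.014) were lower and Hspb11 (1.66, edgeR adjusted p = 0.033) higher, and DESeq2 called 6, these 3 among them. Ttc30a1 and Ttc30b are near-identical copies, so their counts are uncertain. Of 7 dynein-2 genes, which drive the return run, 0 were called with odor and Dync2h1, the motor chain, was lower in the TMT controls (-2.60, edgeR adjusted p = 0.0439), where DESeq2 gave it no p.

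The transition zone, the gate at the base of the cilium, was represented by 16 genes. With 100% TMT edgeR called 0 of them without the block and Tmem67 within litters, where it was higher (log2 fold change 4.09, SE 0.81, edgeR adjusted p = 0.0309). DESeq2 called Tmem67 higher (3.63) and B9d2 lower (-0.66). In the TMT controls Tmem67 (-5.13, edgeR adjusted p = 0.0122), Cep290 (-3.50, edgeR adjusted p = 0.0275) and Ahi1 (-1.52, edgeR adjusted p = 0.0216) were lower than in the acetophenone controls. The TMT controls enter both comparisons, for Tmem67 as for Mkks, so the values of one are not independent of the other. Of the RFX genes, 4 to 6 were tested in each comparison and edgeR called 0. DESeq2 called Rfx7 lower in the TMT controls (-1.06, adjusted p = 0.0204) and 0 in the odor comparisons.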

How the data were processed

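The 23 libraries were compared as the labels group them. Bowtie, bedtools and the mm10 build are named in the submitters' processing notes, with no version or annotation. Every deposited file is a table of 23481 symbols without a header, 20 value columns wide. The first deposited column holds whole-number counts, read from the values as counts of uniquely aligned reads. The last deposited column holds estimated counts, read as including reads with up to 20 alignments; it was rounded and used only as an alternative. The 18 columns between were not used. Without stated strand, overlapping genes cannot be separated.

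Counts were tested with edgeR 4.0.16 (R 4.3.3): TMM, filterByExpr with a minimum count of 10, quasi-likelihood F test, Benjamini-Hochberg adjustment over all genes tested, threshold 0.05. Acetophenone doses were fitted separately, with controls from the same litters, and the 12 TMT libraries together. The fits were tested on simulated data. DESeq2 1.42.0, median-of-ratios size factors, no filter, estimated counts, a GC and length correction, and each library left out were alternatives. CPM used TMM over all libraries; lengths, GC and coordinates came from GENCODE M21 (GRCm38), in which 28 of 28 members and 23112 of 23481 symbols were found. No intervals on counts are given, because PCR copies cannot be told from separate molecules here.

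The labels give litters, so litter numbers pair libraries. Correlations of same-litter deviations from group means were 0.58 to 0.80 (100% acetophenone), 0.72 to 0.89 (1% acetophenone), 0.05 to 0.32 (100% TMT), 0.02 to 0.37 (1% TMT) and -0.05 to 0.42 (TMT doses against each other), across genes. Between different litters they were -0.66 to -0.02, -0.78 to 0.58, -0.17 to 0.06, -0.31 to 0.16 and -0.34 to 0.31, in the same order. In the TMT comparisons the ranges of same and different litters overlap. Values within litters come from the replicate block.

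Named members are those called in either fit or, where none was, the 3 with the smallest p without block, plus the 5 highest and 5 lowest by level. Members and lists were chosen with earlier results of these data known. Ift80 with 100% TMT, other members with values beyond this rule, the promoters printed, the X-box spellings and the alternatives with title codes or GC between controls were chosen after values were seen.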

Additional observations from a re-analysis of the deposited data

Results flagged for a closer look

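Each gene and the share of counts on all members were examined in each group of 4 or 5 libraries, 116 sets in all, and in 8 of them 1 library stood apart from the rest; chance alone flags about 1 set in 20. Ift172 had 417 CPM in the acetophenone control of litter 3, with 125 to 185 in the other 4 controls. In the acetophenone control of litter 2, Ift43 had 293 CPM against 188 to 213, and Ift52 had 165 against 69.8 to 89.2. In the acetophenone control of litter 5, Mkks had 31.9 CPM against 71.4 to 84.7, and Kif3b 4.03 against 0.637 to 1.4. The TMT control of litter 1 had 9.22 CPM of Bbs10 against 0.278 to 1.26, and 86.3 of Ttc8 against 59.6 to 62.7. With 100% TMT, litter 1 had 67.4 CPM of Mkks against 43.4 to 46.2.

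Opposite directions of the odors in every litter marked 3 members. The shares of all genes higher or lower in every litter are given above for each odor alone. The share of all genes with opposite directions between the odors was not counted. The count of 3 members therefore has no background beside it, and some genes of any list can be marked in this way. Mkks had a log2 fold change of 1.53 with 100% TMT, higher in 4 of 4 litters, and -0.15 with 100% acetophenone, lower in 3 of 3. The difference between the odors was tested and did not pass (1.81 within litters, edgeR adjusted p = 0.132). Ift27 had -0.39 with 100% TMT, lower in 4 of 4 litters, and 0.32 with 100% acetophenone, higher in 3 of 3, and its difference did not pass (-0.80 within litters, edgeR adjusted p = 0.218). Ift81 had 0.55 with 1% TMT, higher in 4 of 4 litters though by 0.00 on the log2 scale in the nearest, and -0.21 with 1% acetophenone, lower in 3 of 3; the difference at 1% was not tested.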

How the results depend on the processing

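The count of 0 members called with acetophenone (both doses), with 1% TMT, between the TMT doses and between the odor responses was the same under every alternative run, replicate block and single libraries left out included. With 100% TMT the count was 0 without the block, 1 with the replicate block (Mkks) and 2 with DESeq2 (Mkks and Ift80). Within litters the count of 1 went to 0 with the replicate block and GC and length correction, to 0 with the replicate block and only the 8 libraries compared, and to 0 to 0 over leave-one-out of each litter; it stayed 1 with estimated counts. Between the controls the 7 calls became 14 with DESeq2 and 4 with the GC and length correction (added after the data were seen). The count was 2 to 11 when 1 library was left out, with 11 without TMT control 1 and 2, 2 and 3 without TMT controls 2, 3 and 4. Of all 12315 genes, DESeq2 called 1252 higher and 1864 lower, and the corrected fit 842 and 516. Without TMT control 1, 865 and 1619 of 12571 genes were called. Without TMT controls 2, 3 and 4 these were 217 and 535, 156 and 447, and 128 and 441. The median of the members between controls was -0.11 with the GC and length correction. At 1% acetophenone the median was -0.2 with the replicate block and GC and length correction and -0.23 to 0.07 with 1 library left out, and at 100% acetophenone -0.17 to 0.24. Arl6 at 1% TMT turned to -0.12 with the replicate block and GC and length correction (edgeR adjusted p = 0.974). The cause of these shifts was not tested. Of the values for single members, 33 that passed no longer did under an alternative, 4 passed only under one, and 415 kept their side of the threshold. Depth limits Bbs1, Kif3b and Bbs10, which had libraries with no count.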
